A study of Homo sapiens with 172 samples.

Results

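Contacts of human chromosome 10 with the nuclear lamina were mapped cell by cell in KBM7, a near-haploid line derived from a chronic myeloid leukaemia. The chromosome was taken as its bins of 100 kb in the deposited table, without bins that carried no value and bins that were 0 in every column. This left 1292 of its 1356 bins, out of 26414 such bins in the whole series. Apart from this exclusion, of 49 bins without value and 15 bins at 0 in every column, no measured value was used to choose them.

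The nuclear lamina is a meshwork of lamin proteins beneath the inner nuclear membrane, and lamin B1 is 1 of its constituents. Large blocks of chromatin that touch it are called lamina-associated domains. They are known in many cell types to be poor in genes, low in transcription and late in replication, and a given domain touches the lamina in some cells and not in others.

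All 172 labelled samples belong to a single group, clone 5-5 of KBM7 with a ploidy of 1N, so the data stand for 1 clone and hold no other genotype, treatment or time. Every cell carried Dam fused to LaminB1. The Dam enzyme of this fusion marks DNA near the lamina with adenine methylation, in the DamID assay. The fusion was stabilised with 0.5 nM Shield1 for 15 h, and single cells were sorted from the smallest 2% of those positive for both Fucci cell cycle reporters. In a haploid cell a bin that has not been replicated is present once, so its contact belongs to 1 copy of the chromosome. Whether bins had been replicated in these cells was not tested.

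The values were ratios of observed to expected reads per bin. A bin was counted as in contact in a cell where this ratio was at least 1, the contact share of a cell was the percentage of bins in contact, and the contact frequency of a bin was the percentage of cells in which it was in contact. Of the 172 samples, 168 had a column, and each column was most similar to the column 86 numbers away, so the 2 were averaged as 1 cell and 84 cells resulted. On chromosome 10 alone this match held for 165 of the 168 columns. All SDs below are over cells. They describe variation from cell to cell together with counting noise, and no p-value was computed, since cells of 1 clone are not replicates of a condition.

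Depth differed widely between cells. A cell had between 7134 and 418937 reads in its deeper column (median 63700), of which 208 to 17032 lay on chromosome 10 (median 2868.5). At least 1 read was present in 11.5 to 97.4% of the bins of chromosome 10 (median 44.3%). In the deeper column, a ratio of 1 was worth 0.305 to 17.9 reads in the median bin of a cell (median over cells 2.74). It was worth under 1 read in 13 cells, where a single read in such a bin exceeded a ratio of 1 in that column. Calls used the mean of both columns, so the reads behind a call can differ from these values. Of the 108528 values of chromosome 10, 53.0% were 0, 22.7% lay above 0 and under 1, and 24.2% were at least 1. Few lay near the threshold, with 1.32% from 1 to under 1.1 and 1.5% from 0.9 to under 1. A frequency of 0 in 84 cells allows a share of up to 3.57%. Reads were amplified by PCR and carry no molecular identifiers, so the intervals below cover counting error only.

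Cell 69 stood apart and bears on several results. It held 437 reads on chromosome 10 in its deeper column, where the median share of reads would give 10779.6, although it had 250543 reads in all and 36.3% of its other bins were in contact. Its highest ratio on chromosome 10 was 0.355, so no bin there was called in contact. The low values were not confined to chromosome 10. Cell 69 was also at 0% on chromosomes 2 and 12, and at 0.0647% on chromosome 7. It was at 0.167% on chromosome 20, 0.179% on chromosome 19 and 1.70% on chromosome 21. On chromosome 11 it was the highest of all cells, at 56.2%, and it was also the highest on chromosomes 3, 5, 13 and X, among others. Reads and contact are the same signal in this assay, so a low count and an absent contact cannot be told apart here. Cell 69 counts as a cell without contact in every frequency below. Means, differences and correlations over cells are given with and without it where it moves them.

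Chromosome 10 was in contact over 24.2% ± 7.70 of its bins per cell (SD, n = 84 cells). The lowest cell, cell 69, was at 0%, the median at 24.6% and the highest at 42.5%. Without cell 69 the share was 24.5% ± 7.27 (SD, n = 83), with a lowest cell of 7.97%. Every cell but cell 69 thus had bins of the chromosome called in contact.

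The other chromosomes of the same cells were in contact over 27.9% ± 6.68 of their bins (SD, n = 84). Chromosome 10 minus the rest was -3.71 ± 7.09 percentage points (SD, n = 84), with chromosome 10 higher in 25 cells and lower in 59. Without cell 69 the difference was -3.32 ± 6.14 (SD, n = 83). The mean difference was thus smaller than its spread over cells. Among the 22 chromosomes of the table, in which 9 and 22 appear as exchanged derivatives, chromosome 10 ranked 14 by contact share and 18 by its SD over cells, counted from the highest.

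Chromosomes 11 and 12 are the nearest to chromosome 10 in length. The share of chromosome 10 was 24.2% ± 7.70, against 30.3% ± 10.1 for chromosome 11 and 25.4% ± 9.88 for chromosome 12 (SD, n = 84 each). Chromosome 10 minus 11 was -6.11 ± 10.2 points (SD), with chromosome 10 higher in 18 cells and lower in 66, and -5.50 ± 8.67 without cell 69. Chromosome 10 minus 12 was -1.21 ± 10.1 points (SD), with 34 cells higher and 49 lower, and -1.22 ± 10.1 without cell 69, which was at 0% on both. These mean differences were within 1 SD over cells, and they differed between sets of cells. The sets used here, cells 1 to 29 and cells 30 to 86, are ranges of cell number that no label separates. Their median read numbers were 35922 and 124072, so the sets also differed in depth. Chromosome 10 minus 11 was -2.60 ± 7.06 in cells 1 to 29 and -7.95 ± 11.2 in cells 30 to 86 (SD). Chromosome 10 minus 12 was 1.71 ± 8.57 in cells 1 to 29 and -2.74 ± 10.5 in cells 30 to 86 (SD), so its direction was not the same in both. The current RefSeq annotation, on another build, lists 734 protein-coding genes on chromosome 10 (5.42 per Mb), 1301 on chromosome 11 (9.64 per Mb) and 1024 on chromosome 12 (7.65 per Mb).

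The cells with the highest shares on chromosome 10 were cell 13 at 42.5% (31.7% on the other chromosomes), cell 48 at 40.7% (39.3% elsewhere) and cell 46 at 40.4% (27.9% elsewhere). After cell 69, the lowest were cell 53 at 7.97% (16.1% elsewhere) and cell 68 at 10.2% (17.7% elsewhere). Cells 53 and 68 had 11390 and 30532 reads. In these low cells the other chromosomes were low as well, whereas some cells differed between chromosome 10 and the rest. Cell 60 had 11.5% on chromosome 10 and 31.7% elsewhere, cell 36 had 21.1% and 39.4%, and cell 19, the shallowest of all, had 24.8% and 13.9%.

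Across cells, the contact share of chromosome 10 went with that of the other chromosomes, with a Pearson r of 0.52 and a Spearman rho of 0.58 over 84 cells. Without cell 69 these were 0.61 and 0.62 over 83 cells. The points share the library and depth of each cell. The share of chromosome 10 had an r of 0.33 with the log10 read number (0.40 without cell 69), and the pool of all other chromosomes an r of 0.77 over 84 cells. Single chromosomes ran from -0.39 to 0.73, with 0.68 for chromosome 11 and 0.45 for chromosome 12, and chromosome 10 ranked 15 of the 22 from the highest.

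**Figure D1:**
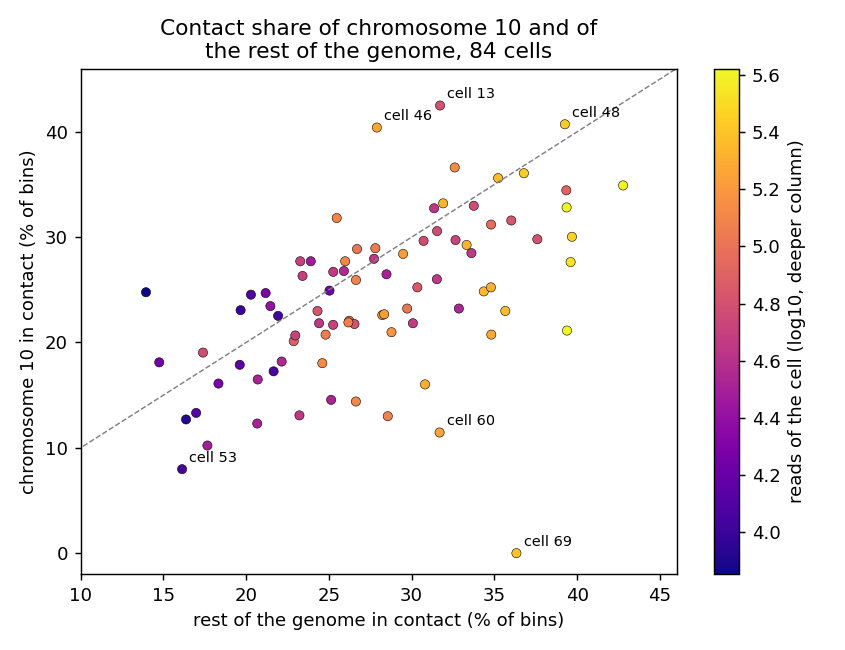
Each point is 1 of 84 cells, coloured by its log10 read number, with the contact share of chromosome 10 on the y axis and that of the other chromosomes on the x axis, both in percent of covered bins, and a dashed line where the 2 are equal. Points lie below the line in 59 cells, and cell 69 sits at 0% on chromosome 10 with 36.3% elsewhere.

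Along the chromosome, bins contacted in most cells and bins hardly ever contacted lay in separate blocks. Frequencies of at least 50% were found in 320 of the 1292 bins (24.8%), where the background over all covered bins of the series was 30.7%. Frequencies under 5% were found in 494 bins (38.2%; background 36.7%), and 86 of these were never contacted (6.66%; background 6.19%). Bins that were 0 in every column, 15 on chromosome 10, are left out of these counts and of the background. Under 20% lay 742 bins (57.4%; background 52.3%), and 548 lay from 20 to 80% (42.4%; background 47.4%). Only 2 bins reached 80% (0.155%; background 0.303%). Chromosome 11 had 463 bins at 50% or more (35.5%) and 471 under 5% (36.1%), and chromosome 12 had 379 (29.0%) and 542 (41.4%).

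**Figure D2:**
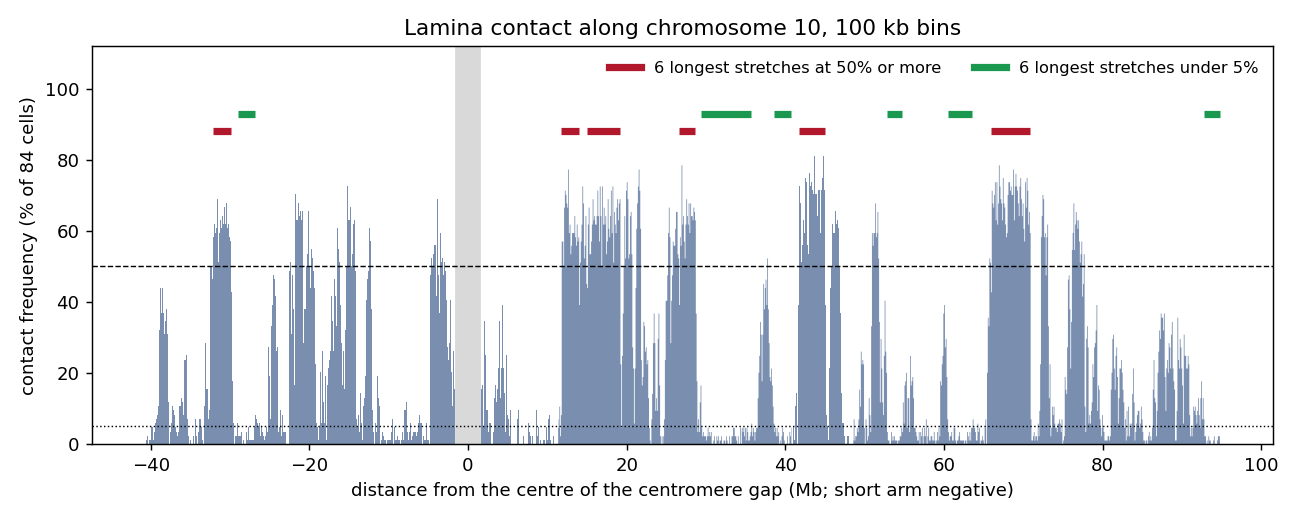
The contact frequency of each covered bin of chromosome 10 (y axis, percent of 84 cells) is plotted against its distance from the middle of the centromere gap (x axis, Mb), with the gap in grey, the 6 longest contacted stretches as red bars and the 6 longest free stretches as green bars. Bins at 50% or more are absent from the outer 8.2 Mb of the short arm and the outer 17.1 Mb of the long arm.

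The 2 bins at 80% were chr10:84400001-84500000 and chr10:85500001-85600000 (hg19). Each was in contact in 68 of 84 cells, or 81.0% (exact 95% binomial interval 70.9 to 88.7%). Their median ratios over cells were 2.12 and 2.31, and their highest ratios 11.9 and 13.8. The next bin, chr10:67600001-67700000, was in contact in 66 cells, or 78.6% (68.3 to 86.8%). It shared this place with the bin starting at 107600001, which had the same frequency, and was named because ties went to the lower coordinate. All these bins were measured in the same cells and chosen as the highest, so the separate intervals do not decide their order. Each of the 2 highest bins was not called in contact in 16 of 84 cells, cell 69 among them. In the 35 cells with at least 100000 reads these were 6 and 7 cells.

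Consecutive bins at 50% or more formed 34 stretches. Their median length was 0.5 Mb, 7 were single bins, and 11 were at least 1 Mb long. The 6 longest held 188 of the 320 bins (58.8%), and 5 of these lay in the long arm.

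The longest contacted stretch was chr10:106700001-111600000, 4.9 Mb with a mean frequency of 68.7%. It was in contact over at least 50% of its length in 65 of 84 cells, over all of it in 8 and nowhere in 1, cell 69, and the median cell had 77.6% of it in contact. The next, chr10:55800001-59900000, spanned 4.1 Mb with a mean of 63.1% and a median cell at 68.3%. It was in contact over 50% or more of its length in 56 cells, all of it in 5 and none of it in 2. The stretch chr10:82500001-85800000, 3.3 Mb, holds both bins at 80%. Its mean was 68.2%, the median cell was at 77.3%, and 61 cells had 50% or more, 5 all and 2 none of it in contact. These 3 large domains had most of their length in contact in most cells, while full contact from edge to edge was rare. Their bins were chosen for a frequency of at least 50% over these same cells, so the high occupancy is a description.

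The other 3 of the 6 longest were about 2 Mb each. The only one in the short arm, chr10:8600001-10900000 (2.3 Mb), had a mean of 62.1%, with 55 cells at 50% or more, 11 with all and 6 with none of it in contact. The stretch chr10:52500001-54700000 (2.2 Mb) had a mean of 61.4%, with 56, 10 and 3 such cells. The stretch chr10:67400001-69400000 (2.0 Mb) had a mean of 63.4%, with 58, 9 and 6 such cells. A shorter stretch has fewer bins and reaches 0 or 100% more easily, so these counts cannot be set against those of the longer domains.

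Counted by how much of a stretch was in contact, intermediate cells were common in all 6. Of the 84 cells, 41 had 20 to 80% of the longest stretch in contact, 36 had at least 80% and 7 under 20%. For the stretch at 67.4 Mb these counts were 31, 41 and 12, the largest class being nearly complete contact. For the stretch at 55.8 Mb they were 49, 29 and 6, the largest class being partial contact. Bins without a read in shallow cells count as not in contact, and their part in the partial occupancy was not tested, though in the 35 cells with at least 100000 reads the 6 means were higher, from 68.3 to 76.3%, against 61.4 to 68.7% over all cells. Without cell 69 the 6 means over cells were 62.1 to 69.5%.

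**Figure D3:**
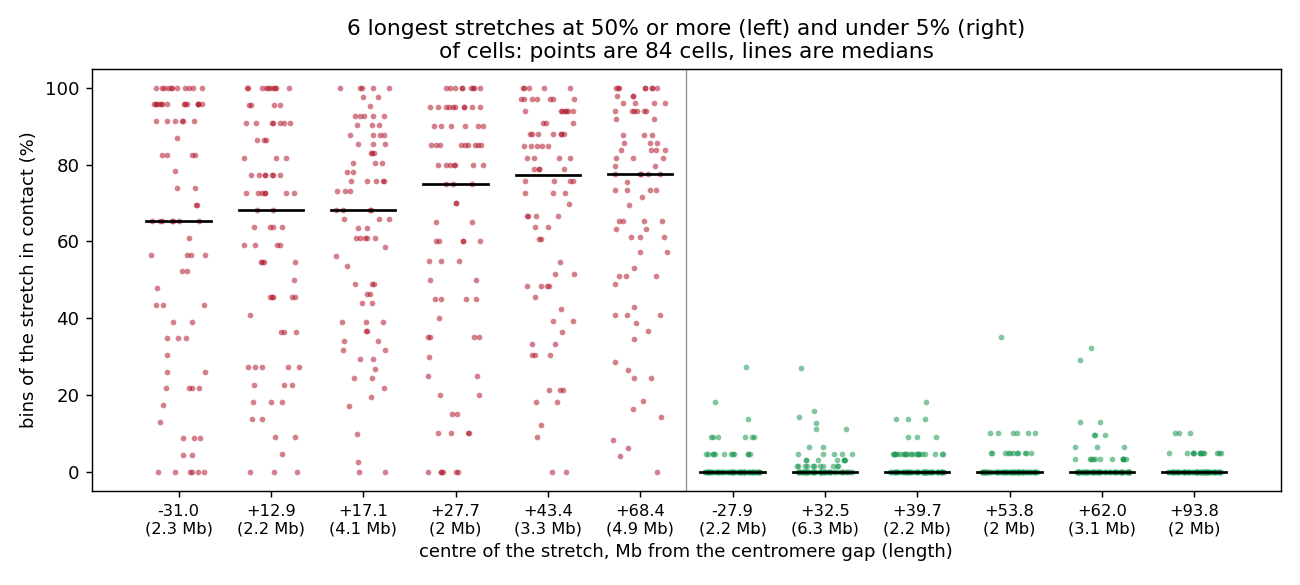
The percentage of each stretch in contact is shown per cell (y axis, 1 point for each of 84 cells) for the 6 longest contacted stretches on the left and the 6 longest free stretches on the right (x axis). Cells cover the whole range from 0 to 100% in the contacted stretches and lie mostly at 0% in the free ones.

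Between the stretches at 52.5 and 55.8 Mb lay 1.1 Mb with a mean frequency of 55.6%, in which single bins went as low as 39.3%. With a lower bound of 20% the 2 stretches joined into chr10:52500001-60000000, 7.5 Mb with a mean of 61.0%, the longest of 58 such zones on the chromosome. The second longest zone was chr10:106100001-111600000, 5.5 Mb. The proximal long arm between 52.5 and 60 Mb was thus the largest part of chromosome 10 often found at the lamina, although it was split at the 50% bound.

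The short arm had smaller contacted stretches. Besides the one at 8.6 Mb, its longest were chr10:25400001-26500000 (1.1 Mb, mean 60.9%), chr10:19000001-20000000 (1 Mb, mean 64.9%) and chr10:36100001-36700000 (0.6 Mb, mean 54.8%), named here after their values were seen. The whole stretch was in contact in 17, 26 and 20 cells and none of it in 7, 6 and 17. The highest bin of the short arm, chr10:25500001-25600000 at 72.6%, lay in the first of these.

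Stretches under 5% were more numerous and shorter. There were 93, with a median of 0.2 Mb, of which 35 were single bins and 16 at least 1 Mb long. The 6 longest held 178 of the 494 bins (36.0%). The longest uninterrupted one, chr10:70100001-76400000, measured 6.3 Mb and was longer than any contacted stretch. Its mean frequency was 2.00%, 16 of its bins were never in contact, 53 cells had no contact in it, and the longest run of contacts inside it in any cell was 2 bins.

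The other 5 were chr10:101200001-104300000 (3.1 Mb, 2.07%), chr10:11700001-13900000 (2.2 Mb, 2.00%), chr10:79300001-81500000 (2.2 Mb, 2.16%), chr10:93500001-95500000 (2.0 Mb, 1.79%) and chr10:133500001-135500000 (2.0 Mb, 1.13%). No contact was seen in them in 62, 63, 56, 66 and 68 cells. The last one, at the end of the long arm, had 8 bins that were never in contact. In the 35 cells with at least 100000 reads the means of the 6 free stretches were 0.286 to 1.29%, against 1.13 to 2.16% over all cells, so contact in them was rarer where coverage was deeper.

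Contacts in the free stretches were concentrated in few cells. Over their 178 bins a cell had 1.91% ± 3.55 in contact (SD, n = 84), the median was 0.562%, and 32 cells had none. Cell 48 was highest at 24.2% and was the top cell in 4 of the 6 stretches, with 18.2 to 35.0% of them in contact. This cell had reads in 97.4% of the bins of chromosome 10, the most of any cell, and only 46.3% of its bins in the 6 contacted stretches were in contact. Cell 54 had 32.3% of the stretch at 101.2 Mb in contact. The columns of cell 54 and cell 56 differed from each other more than in the other 82 cells. Their chi-square per bin was 1.53 and 3.60, where a value under 1 was found in all the others.

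Over the 188 bins of the 6 contacted stretches, a cell had 65.2% ± 20.8 in contact (SD, n = 84), with a lowest of 0% (cell 69), a median of 70.2% and a highest of 100% (cell 46). Without cell 69 the mean was 65.9% ± 19.7 (SD, n = 83). The contacted stretches were ahead of the free ones in 83 of 84 cells, the exception being cell 69. Since both sets were chosen by frequency over these cells, this describes how even the choice was over cells and tests nothing.

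Several borders between the 2 kinds of chromatin were steep. They were chosen as the largest drops in frequency over these cells, so the values on their sides are a description. The sharpest lay after base 111600000, where the 5 bins before it averaged 66.7% and the 5 bins after it 3.10%, with mean ratios of 2.23 and 0.138. At least 3 of the 5 bins were in contact on the high side in 56 cells, on the low side alone in 1 and on both sides in 0. After base 85800000 the 5 bins before averaged 71.2% and the 5 bins after 12.9%, and 63 cells had the high side and 2 both sides in contact. After base 69400000 these values were 64.5 and 13.8%, with 57 and 2 cells. With so low a frequency on the low side, few cells could be in contact on both sides.

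The remaining 3 of the 6 sharpest borders showed the same form. After base 52500000 the high side was the distal one, at 60.5% with 6.67% on the proximal side, and 51 cells had the high side and 3 both sides in contact. After base 82400000 the distal side was at 58.8% and the proximal side at 8.57%. After base 26600000 the side before it was at 58.1% and the side after it at 5.71%, the only border of the 6 in the short arm.

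Some free stretches lay next to contacted ones. The free 6.3 Mb began 0.7 Mb after the contacted stretch at 67.4 Mb ended, and the interval between them averaged 13.9%. Between the free stretch at 79.3 Mb and the contacted one at 82.5 Mb lay bins that averaged 10.2%, and between the contacted stretch at 8.6 Mb and the free one at 11.7 Mb bins that averaged 9.97%.

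Contact was rare at the chromosome ends. Bins within 2 Mb of either end averaged 4.33%, against 24.8% for the rest of the chromosome. These values were 8.21 and 31.0% on chromosome 11, and 1.67 and 26.2% on chromosome 12. Ends minus the rest was -20.5 points on chromosome 10. Over the 22 chromosomes, 10 among them, it ran from -35.8 to 1.99 points with a median of -20.7. On chromosome 10 the end of the short arm was at 7.71% over 19 bins, with 1 bin as high as 44.0%. The end of its long arm was at 1.13% over 20 bins, none above 2.38%. No bin reached 50% in the outer 8.2 Mb of the short arm or the outer 17.1 Mb of the long arm. The last 15 Mb averaged 11.8% and the first 8 Mb 10.8%.

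The sides of the centromere differed. The bins without a value at the centromere ran from 39200001 to 42300000, 3.1 Mb, and separate 387 bins of the short arm from 905 of the long arm. The last 2 Mb of the short arm before this gap averaged 33.3% ± 23.1, against 10.0% ± 10.8 for the first 2 Mb of the long arm (SD over 84 cells). The last bin of the short arm at 50% or more ended 1.3 Mb from the gap, whereas the first such bin of the long arm began 10.2 Mb from it. In the 10.2 Mb of proximal long arm only 78 bins were covered, with a mean of 9.02% and 38 bins under 5%.

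The short arm as a whole was in contact over 22.1% ± 10.2 of its bins and the long arm over 25.2% ± 8.46 (SD, n = 84). Without cell 69 these were 22.3% ± 9.97 and 25.5% ± 8.04 (SD, n = 83). The short arm ranged from 0 to 47.3% over cells and the long arm from 0 to 46.9%. Short minus long was -3.10 ± 10.2 points (SD), with the short arm higher in 34 cells and lower in 49. The tally depended on the cells: the short arm was higher in 9 of the 35 cells with at least 100000 reads (mean -5.34 ± 10.9) and in 25 of the other 49 (mean -1.49 ± 9.51). In cells 1 to 29 it was higher in 17 of 29 (mean -1.47 ± 10.4), and in cells 30 to 86 in 17 of 55 (mean -3.96 ± 10.1). The mean difference was small beside its spread, and single cells differed by far more in either direction. Bins at 50% or more made up 19.1% of the short arm, in 16 stretches, and 27.2% of the long arm, in 18 stretches. Bins under 5% made up 37.5% of the short and 38.6% of the long arm.

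Cell 45 was the most uneven. It had 1 short-arm bin in contact (0.258%), against 22.8% of the long arm. It held 230 reads on its short arm, where its read number and the median share of that arm over cells would give 2279.26. Cell 43 was the opposite, with 44.7% of the short arm and 26.3% of the long arm in contact, and 4075 short-arm reads where 1392.88 would be expected. Read number and contact are the same signal in this assay, so a low count and an absent contact cannot be told apart.

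Once the share of the other chromosomes in the cell was removed by a linear fit, the contact shares of the arms had a Pearson r of 0.30 and a Spearman rho of 0.23 over 84 cells. Without cell 69 they were 0.19 and 0.20 over 83 cells. The arms of a cell share its library and depth. In the 29 cells numbered 1 to 29 the r was -0.0368, and in the 35 cells with at least 100000 reads it was 0.430. The relation of the arms was therefore weak and not the same in all sets of cells. Over 18 chromosomes with arms that could be compared, chromosome 10 among them, r ran from 0.248 to 0.626 with a median of 0.450.

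In single cells, contacts formed runs of consecutive bins. The mean run on chromosome 10 was 3.51 ± 1.46 bins (SD, n = 83 cells with a contact), and cell means ran from 1.23 to 7.35 bins. A cell had 33 to 270 runs, with a median of 93. Of 8331 runs in all cells, 52.3% were single bins, but the 550 runs of at least 10 bins (1 Mb) held 36.6% of all contacts. Chromosome 11 had runs of 3.91 ± 1.86 bins and chromosome 12 of 3.75 ± 1.87 bins (SD over cells), with 41.8% and 40.1% of their contacts in runs of at least 10 bins. The differences were within the SD over cells.

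The longest run per cell had a median of 2.45 Mb and was at least 2 Mb long in 53 cells. Cells 46 and 78 shared the longest run, chr10:52500001-60000000, 75 bins or 7.5 Mb in unbroken contact, with mean ratios of 3.20 and 2.43. It had the same first and last bin in both cells, and coincides with the zone given above by the bound of 20%. Cell 43 followed with 6.1 Mb at chr10:53800001-59900000. All 3 longest runs therefore crossed the interval between the stretches at 52.5 and 55.8 Mb. Cells 46 and 78 had 184744 and 272997 reads.

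**Figure D4:**
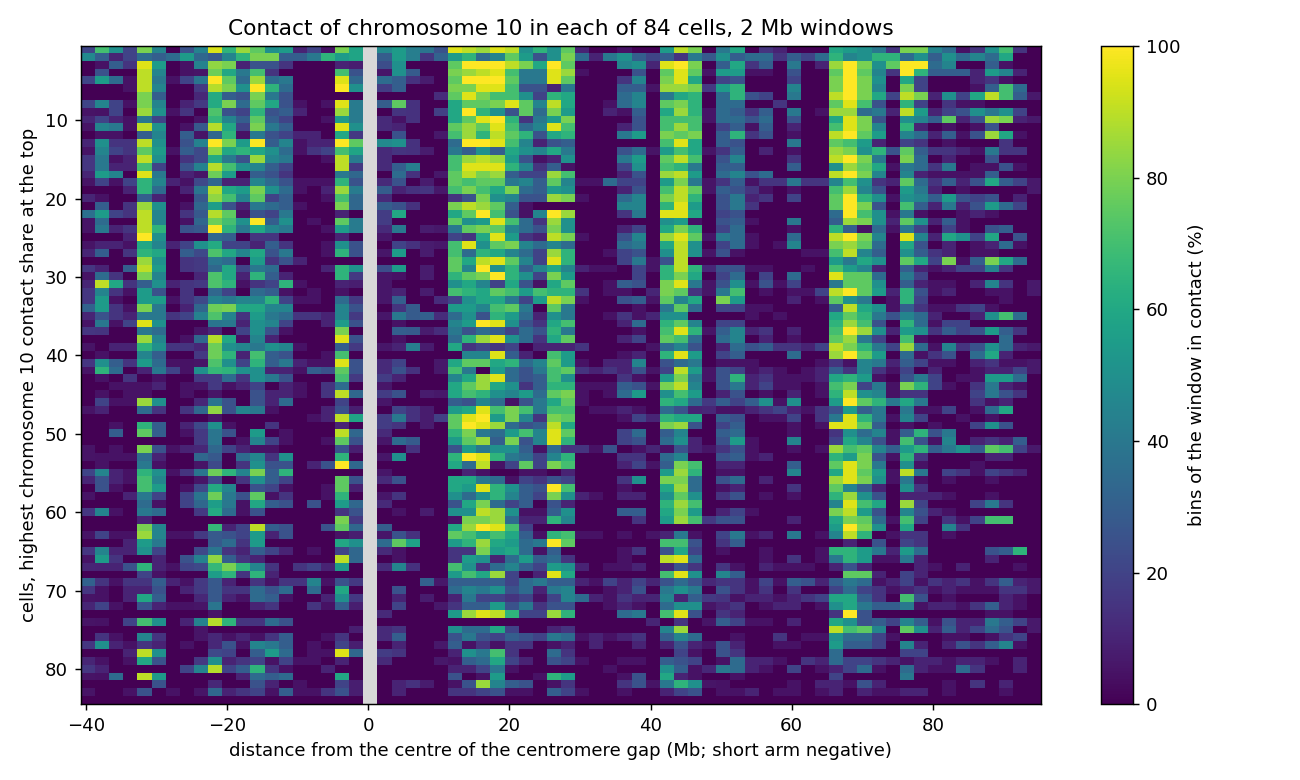
Each row is 1 of 84 cells and each column 1 of 67 windows of 2 Mb along chromosome 10 (x axis, distance from the middle of the centromere gap in Mb), with the percentage of the window's bins in contact as the colour. Windows averaged between 1.07 and 69.4% over cells, with 12 windows at 50% or more and 15 under 5%.

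Bins close together tended to be in contact in the same cells. For the 548 bins at 20 to 80% of cells, corrected for how much of the rest of the genome was in contact, adjacent bins had a mean r of 0.442 over 84 cells, and bins 1.1 to 2 Mb apart 0.255. At 5.1 to 10 Mb the mean r was 0.141, at 20.1 to 50 Mb 0.0643 and beyond 100 Mb 0.00953. The link between bins thus weakened steadily with distance. Without cell 69 the values were 0.427 for adjacent bins, 0.235 at 1.1 to 2 Mb, 0.122 at 5.1 to 10 Mb, 0.0423 at 20.1 to 50 Mb and -0.00727 beyond 100 Mb.

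Adjacent bins had a mean r of 0.442 on chromosome 10, against 0.405 on chromosome 11 and 0.448 on chromosome 12. Over 19 other chromosomes, 11 and 12 among them, it was 0.372 to 0.541. At 20.1 to 50 Mb chromosome 10 had 0.0643, chromosome 11 0.0665 and chromosome 12 0.121, with 0.0201 to 0.179 over the same 19. Chromosome 10 lay inside the range of the others at these distances. Beyond 100 Mb, with all cells kept, chromosome 10 was below that range, at 0.00953. Chromosome 11 had 0.0288 there, chromosome 12 0.0381, and the 11 others long enough 0.0280 to 0.0817. Without cell 69, chromosome 10 was at -0.00727, chromosome 11 at 0.0247 and chromosome 12 at 0.0150. Chromosomes 11 and 12 were then also below 0.0280. The range of the others is not given without cell 69, nor is a spread. These values therefore do not decide whether chromosome 10 stood apart beyond 100 Mb. At 20.1 to 50 Mb, pairs within the short arm had a mean r of 0.0817, pairs within the long arm 0.0701 and pairs across the centromere 0.0541.

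**Figure D5:**
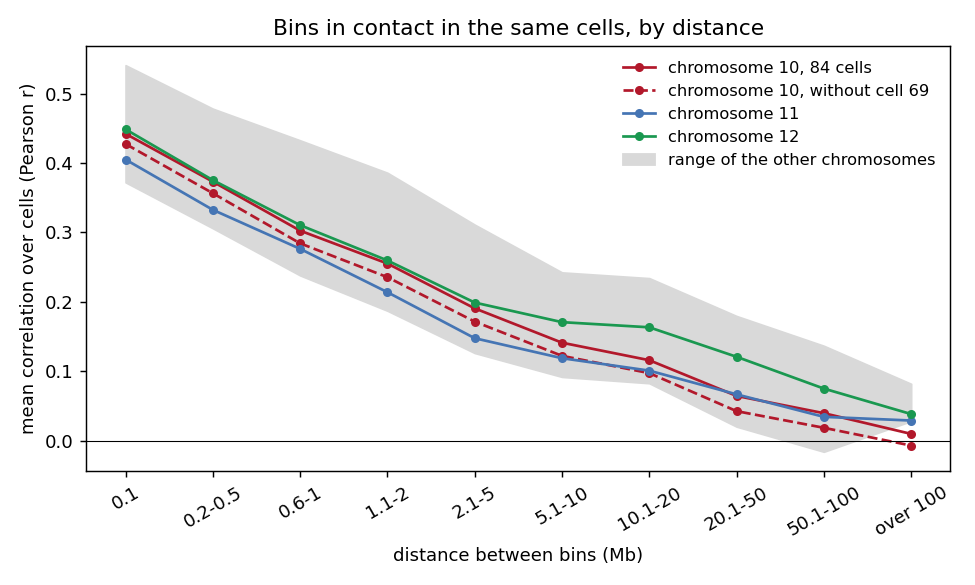
The mean correlation over cells of contacts in 2 bins (y axis, Pearson r) is plotted against the distance between the bins (x axis, classes in Mb) for chromosome 10 with and without cell 69 (dashed), for chromosomes 11 and 12 and, as a grey band, for the range of 19 others. With cell 69 kept, the line of chromosome 10 starts at 0.442 and stays inside the band up to 50.1 to 100 Mb. Beyond 100 Mb it ends below the band, at 0.00953 against 0.0280 to 0.0817. The band also has cell 69 kept.

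The 6 long contacted stretches were also compared in pairs, by whether each was in contact over at least 50% of its length. All 6 were so in 25 cells, 5 in 23, 4 in 10, 3 in 8, 2 in 10, 1 in 2 and none in 6 cells (16, 40, 49, 53, 54 and 69). The cells with all 6 had a median of 31.7% in contact on the other chromosomes and a median of 112788 reads, against 20.1% and 23406.5 reads in the cells with none. Depth and the general level of contact thus moved with this count, and their part in it was not tested.

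Corrected for the share of the other chromosomes, the 15 pairs had r from 0.0783 to 0.532 over 84 cells, with a median of 0.334. Without cell 69 they ran from -0.0236 to 0.486 with a median of 0.252, and 13 of the 15 were above 0. The stretches at 52.5 and 55.8 Mb, 1.1 Mb apart, had the highest r at 0.532 (0.486 without cell 69). The stretches at 82.5 and 106.7 Mb, 20.9 Mb apart, followed closely with 0.518 (0.434 without cell 69), and were in contact together in 56 cells, only the first in 5, only the second in 9 and neither in 14. By contrast the stretches at 67.4 and 106.7 Mb, 37.3 Mb apart, had an r of 0.0936 (-0.0156 without cell 69), with 48 cells in both, 10 and 17 in only 1 of them and 9 in neither. The short-arm stretch at 8.6 Mb had an r of 0.0783 with the one at 82.5 Mb (-0.0236 without cell 69). Distance alone thus did not order these pairs.

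The strength of the signal within a contact also differed between bins. In the 35 cells with at least 100000 reads, of which 34 had such contacts, the mean over cells of the median ratio in contact was 2.49 ± 0.675 for bins at 50% or more, 1.90 ± 0.382 for bins at 20 to 50% and 1.60 ± 0.267 for bins at 5 to 20% (SD, n = 34). Bins at 50% or more minus bins at 5 to 20% was 0.898 ± 0.660 (SD, n = 34), and positive in 32 of 34 cells. Frequently contacted bins therefore also had higher ratios when in contact. In the rare contacts of bins under 5% the value was 2.37 ± 2.74 (SD, n = 28), with a spread too wide to place it. The frequency classes come from the same ratios, so this is a description.

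The profile was much the same in different sets of cells. Over the 1292 bins, the frequencies in odd-numbered and even-numbered cells had a Pearson r of 0.963 and a Spearman rho of 0.913, and 277 bins were at 50% or more in both, out of 286 in the odd and 343 in the even cells. Cells 1 to 29 and cells 30 to 86, with medians of 35922 and 124072 reads, had an r of 0.945 over bins. Neighbouring bins are not independent, so these values carry no p.

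Deeper cells had a slightly higher share on chromosome 10, with 25.5% ± 8.61 in the 35 cells with at least 100000 reads (26.2% ± 7.49 without cell 69), against 23.3% ± 6.94 in the other 49 (SD). The gap to the other chromosomes was wider in them, with chromosome 10 minus the rest at -6.27 ± 8.89 points (-5.38 ± 7.29 without cell 69), against -1.89 ± 4.77 in the other 49 cells (SD). The other chromosomes together were at 31.7% in the deeper cells, against 25.2% in the other 49. Deeper minus other cells was 2.11 points on chromosome 10, rank 17 of the 22 chromosomes from the highest, which ran from -1.25 to 10.6 points. The cause was not tested.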

How the data were processed

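Single-cell DamID of LaminB1 was analysed in 84 cells. Per the submitters' processing notes, the tools used were cutadapt and Bowtie2 2.1.0 and the build was hg19. The deposited values are ratios, which the authors formed per bin of 100 kb from observed and expected reads. The sources used here do not state the treatment of duplicate reads or the basis of the expectation. The labelled samples 81, 82, 167 and 168 were not analysed here.

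Columns 86 numbers apart were averaged as 1 cell. Contact was called from a ratio of 1. Arms were split at the longest run of bins without a value. Reads were worked back from the steps between ratios, and of 1965662 values above 0, 100% lay within 0.02 of a whole number. The recovery was also run on simulated reads, drawn around the recovered counts. This run concerns the procedure on known counts and not the recovered counts themselves, and its outcome is not reported here. Distance correlations used bins at 20 to 80%, with a linear fit on the share of the other chromosomes of the cell removed. Python 3.11.15, numpy 2.4.6, pandas 2.3.3 and scipy 1.17.1 were used.

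Regions were named by rule: bins at 80% or more and the 3 highest, the 6 longest stretches at 50% or more and under 5%, the 6 sharpest borders at least 2 Mb apart, the 3 longest runs and the cells with the highest and lowest shares. The members and lists were chosen with earlier results of these data known. The gene annotation at hand is of GRCh38.p14, so no gene was placed on the hg19 bins, the planned values per gene were not computed, and no sequence is printed. Alternatives covered the cutoff, the scale per cell, the bin size, the cells and columns used, depth and the correction.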

Additional observations from a re-analysis of the deposited data

How the results depend on the processing

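Of 153 values recomputed under alternatives for 10 results, 131 moved by less than the margin set for each. The margin was the SD over cells or over chromosomes, or a factor of 1.5 for the percentages of bins. Short minus long arm and chromosome 10 minus chromosomes 11 and 12 were smaller than their SD. For them even a change of sign could stay within the margin, so this count does not show that they are stable. Values moved with the cutoff and with the cells used. The share of chromosome 10 was 32.6% at a ratio of 0.5 and 13.7% at 2, bins under 5% made up 20.0% at 0.5, and bins at 50% or more 14.6% at 1.5 and 3.64% at 2. Averaging 5 neighbouring bins, which joins runs by construction, gave runs of 11.9 bins and an adjacent r of 0.833. The adjacent r was 0.362 in cells 1 to 29, 0.487 in cells 30 to 86, 0.487 in the 44 cells with over 50% of the bins above 0 and 0.581 in cells with at least 100000 reads, a set added after seeing the data. The r at over 20 to 50 Mb was 0.0167 in cells 1 to 29, 0.106 in the 44 cells, 0.106 in the cells with at least 100000 reads and 0.0980 without the correction. The r of the arms was 0.416 in odd and 0.0880 in even cells, 0.193 without cell 69, 0.422 in the 44 cells, 0.430 in the deep cells, 0.411 without the correction and, with its sign turned, -0.0368 in cells 1 to 29. The cause of these shifts was not tested. Short minus long arm stayed below 0 in all 15 alternatives (-5.34 to -1.47), as did ends minus the rest (-25.5 to -12.5) and chromosome 10 minus the mean of chromosomes 11 and 12, which was -0.448 in cells 1 to 29, -5.35 in cells 30 to 86 and -6.15 in cells with at least 100000 reads. Depth limits single calls, since a ratio of 1 was worth under 1 read of the deeper column in 13 cells. With 1 group of samples there was no replicate block to fit; differences within a cell are given as such.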
